A study of Mus musculus with 51 samples.

Results

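The genes of the cytosolic ribosome were examined in 51 Affymetrix HT-MG-430A arrays of laser-captured mouse hippocampal cell layers. A gene was taken as a member when a probe set carried its symbol alone and the symbol was that of a large subunit protein (Rpl), a small subunit protein (Rps, including Rpsa) or a stalk protein (Rplp0, Rplp1 and Rplp2), while the S6 kinases (Rps6k) were left out. This gave 68 genes out of 11807 genes measured by a probe set of a single symbol, 44 of the large and 24 of the small subunit. Where several probe sets measured a gene, the one with the highest mean over the 51 arrays was used, so that no subfield or genotype entered the choice. All 68 were tested with no filter on low signal. Some proteins of the cytosolic ribosome, such as Rpl5, Rps3, Rps27 and Rps27a, were not analysed here.

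The granular layer of the dentate gyrus (DG) and the pyramidal layers of CA1 and CA3 came from 17 mice, all labelled as female and aged 4.5 months, with 1 array per mouse and layer. Of these mice, 6 were rTg4510, which carry a tetracycline-responsive transgene of human tau with a proline-to-leucine change that causes familial tauopathy, together with the tetracycline transactivator (tTA) under the CaMKIIα promoter, so that the transgene is expressed in forebrain excitatory neurons. Another 5 were tTA littermates, which carry the transactivator alone and were the key control, and 6 were double negative (DN) littermates with neither transgene. The transgenes came from parents of different inbred strains, so that every mouse was of mixed background.

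Ribosomal proteins assemble with ribosomal RNA into the small subunit, which reads the mRNA, and the large subunit, which joins amino acids and passes the growing chain through an exit tunnel. Their genes are among the most strongly transcribed of any cell and tend to be regulated together, since each ribosome holds a single copy of nearly every protein. Their mRNAs usually start with a short run of pyrimidines at the 5′ end (a TOP sequence), through which the mTOR pathway controls their translation, and in neurons they are found in dendrites and axons as well as in the cell body.

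The labelled layers were checked first. All 6 measured markers of granule cells (Prox1 and Calb1 among them) were higher in DG than in CA1 and than in CA3, with median differences of 3.82 and 4.84 on the log2 scale, and 6 of 6 CA3 markers lay lower in CA1 than in CA3, 5 of them past the test. Of 6 CA1 markers, 5 lay higher in CA1 than in CA3 and 3 passed. By array the CA1 layer was less uniform. The mean of the CA3 markers, each taken less its mean over all arrays, lay above that of the CA1 markers in 4 arrays labelled CA1, those of rTg4510 mice 1 and 6, tTA mouse 1 and DN mouse 2. It was 0.17 to 1.10 in these 4 and −1.73 to −0.18 in the other 13 CA1 arrays, against 0.69 to 1.44 in the CA3 arrays. The CA1 array of rTg4510 mouse 6 (1.10) lay within the range of the CA3 arrays. The mean of the CA1 markers ran from −0.68 to −0.21 in the 4 arrays and from −0.53 to 2.71 in the other 13. In the DG arrays it ran from −0.4 to 0.92. These ranges overlapped, so the CA1 arrays that remain without the 4 were not uniform either. Array medians of all signals lay between 2.91 and 3.12. In 5 arrays the signal of Prnp, which separated rTg4510 from other mice elsewhere, went against the genotype label. Its log2 signal ran from 9.65 to 10.44 in all 3 layers of DN mouse 4 and in DG of DN mouse 5. In DG of rTg4510 mouse 3 it was 7.34, against 9.59 to 10.55 in the other 17 rTg4510 arrays and 6.57 to 8.76 in the other 29 arrays of tTA and DN mice. In CA1 and CA3 it was 10.11 and 9.69 in rTg4510 mouse 3 and 8.12 and 8.55 in DN mouse 5. The DG arrays of these mice thus did not match their other layers, so their pairing within a mouse is in doubt too. All arrays were kept under their labels. The counts by layer and the results by genotype are given with all arrays and without these 5, or without 7, which adds the CA1 and CA3 arrays of DN mouse 5, and also without the 4 CA1 arrays, a setting chosen after the data were seen.

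Ribosomal protein genes were higher in the DG than in CA1. Signals were compared between layers with the mouse as a block in limma, with p-values adjusted over all 22626 probe sets that are not controls (Benjamini-Hochberg) and a threshold of 0.05. Of the 68 genes, 66 lay higher in DG than in CA1, and 37 of them (54.4%) passed the test, against 5.33% of all probe sets called higher in DG. No member was called lower in DG than in CA1, where 5.6% of all probe sets were, and 49 of the 68 had an unadjusted p under 0.05. The median difference of the members was 0.39 on the log2 scale, 1.31-fold, beside −0.02 for all probe sets. The differences of members that passed were modest, from 0.24 (Rps10) to 0.81 (Rpl36a). Without the 5 doubtful arrays 25 members were called and without the 7 arrays 26, with a median of 0.33 in both. Without the 4 CA1 arrays 32 were called (median 0.41), and without these 4 and the 5 doubtful arrays 19 (median 0.37). The share of all probe sets called was not computed with arrays left out, so these changes in count cannot be read as particular to the members.

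Against CA3 the same layer stood higher by less. Here 62 of 68 genes lay higher in DG, 22 (32.4%) were called higher, against 6.59% of all probe sets, and none was called lower, where 7.27% of all probe sets were (limma, 35 of 68 with an unadjusted p under 0.05). The median difference was 0.26, 1.20-fold, beside −0.05 for all probe sets. Without the 5 doubtful arrays 13 members were called, with a median of 0.20, and without the 7 arrays 13. Leaving out the 4 CA1 arrays gave 23, and leaving out these and the 5 arrays 14. Here too no share of all probe sets was computed with arrays left out. Between the pyramidal layers little passed the test. Of the 68 genes, 51 lay lower in CA1 than in CA3, with a median of −0.12 beside −0.03 for all probe sets, none was called higher (2.46% of all probe sets were) and 1 was called lower (2.22% of all probe sets were), with an unadjusted p under 0.05 for 11. The count lower in CA1 than in CA3 was 3 without the 4 CA1 arrays. In 44 of the 68 genes the mean was highest in DG, next in CA3 and lowest in CA1. DG had the highest mean in 62 genes.

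Members are brighter than most probe sets, and bright probe sets are called more often. Of the 54 members with a mean signal of at least 7, a limit chosen after the data were seen, 34 were called higher in DG than in CA1 and 20 higher in DG than in CA3, against 12.5% and 13.1% of all probe sets as bright as that. Of the 14 dimmer members, 3 and 2 were called, and the share of all dimmer probe sets was not computed. The contrasts with CA1 and CA3 share the DG arrays. Of the 40 members called higher in DG in either, 19 were called in both, 18 against CA1 alone and 3 (Rps13, Rps29 and Rpl35a) against CA3 alone, and whether the difference of a gene itself differed between the contrasts is the comparison of CA1 with CA3.

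**Figure D1:**
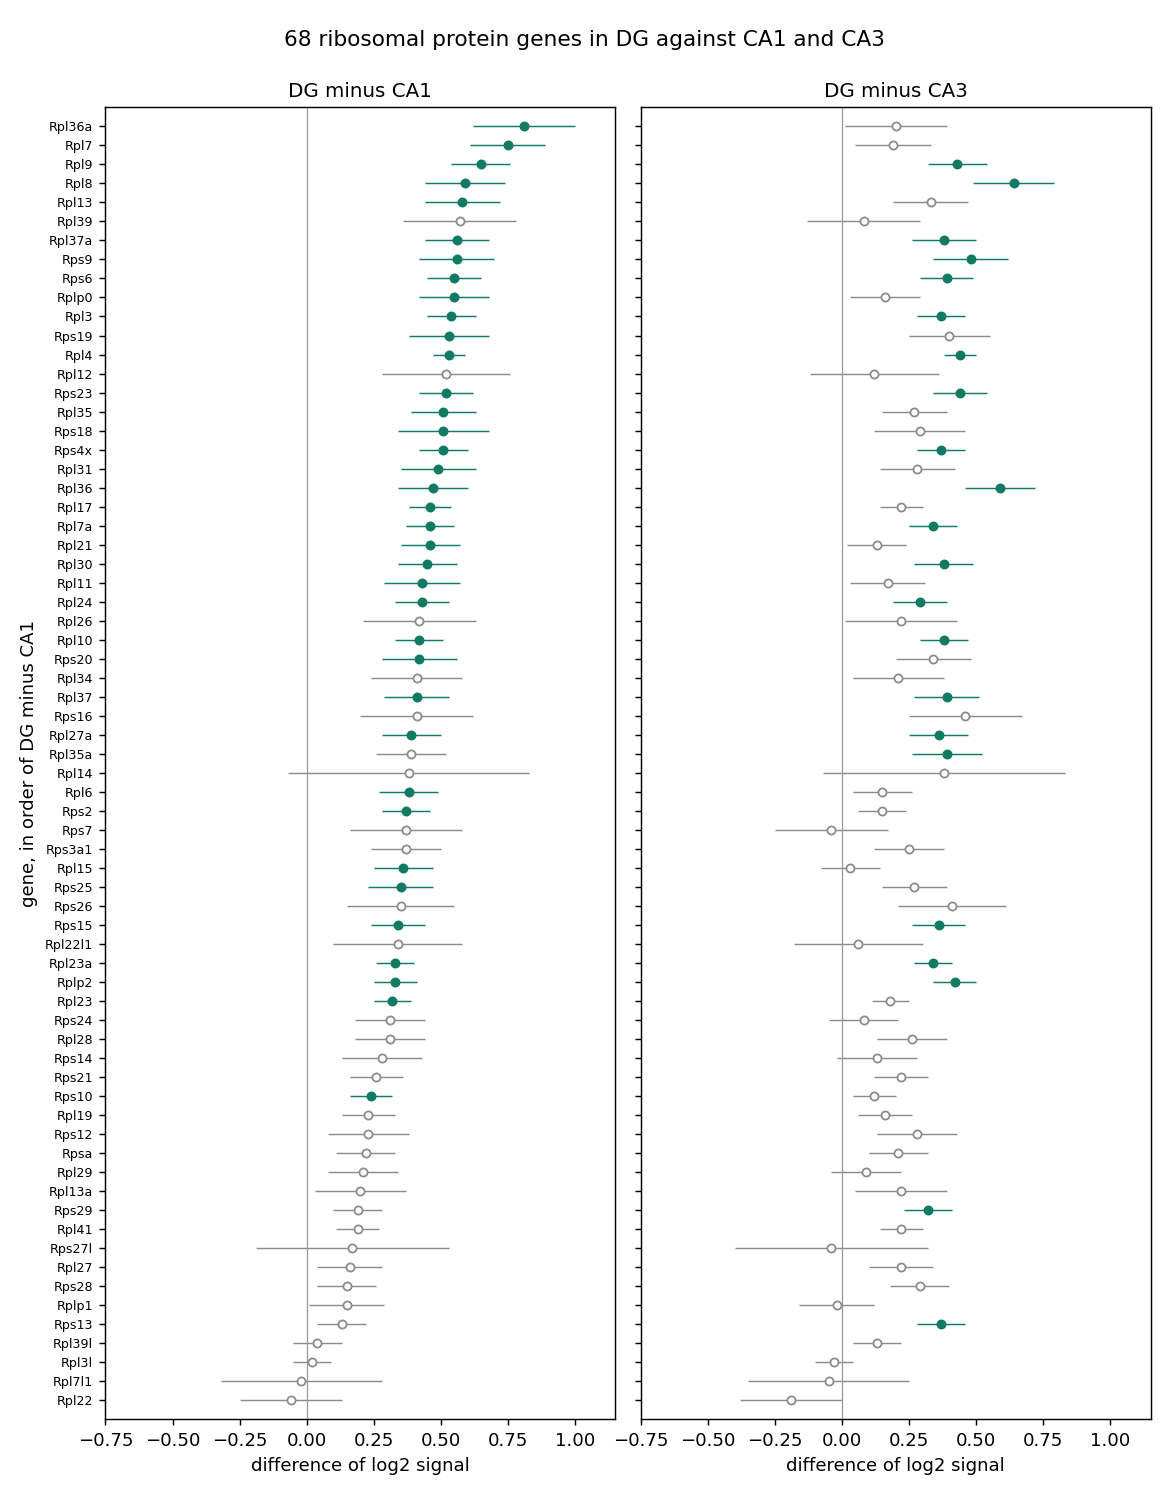
Difference of log2 signal between DG and CA1 (left) and between DG and CA3 (right) for each of the 68 genes, in the order of DG minus CA1, with bars of 1 standard error. Filled green points passed an adjusted p of 0.05 (37 on the left, 22 on the right) and open grey points did not. Nearly all points lie right of 0 in both panels.

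The steadiest difference was that of Rpl4, whose protein lines part of the wall of the exit tunnel. Its log2 signal lay between 9.83 and 10.44 in DG (median 10.16), between 9.02 and 9.84 in CA1 (median 9.66) and between 9.48 and 10.01 in CA3 (median 9.67). The DG arrays overlapped the CA1 arrays only at their edge, and Rpl4 was higher in DG than in CA1 in 17 of 17 mice and than in CA3 in 16 of 17. The difference was 0.53 from CA1 (1.44-fold, standard error 0.06, adjusted p = 7.25e-08, limma) and 0.44 from CA3 (1.35-fold, standard error 0.06, adjusted p = 1.69e-06).

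Rps6, a small subunit protein that the S6 kinases phosphorylate and whose phosphorylation is read as a sign of mTOR activity, had signals of 9.93 to 10.82 in DG (median 10.36), 9.10 to 10.31 in CA1 (median 9.97) and 9.39 to 10.69 in CA3 (median 10.05). These groups overlapped, although only 2 mice had a lower signal in DG than in CA1 and 3 did against CA3. Rps6 was higher by 0.55 than in CA1 (standard error 0.10, adjusted p = 8.36e-05) and by 0.39 than in CA3 (standard error 0.10, adjusted p = 0.00454). These are levels of mRNA and say nothing about the phosphorylated protein.

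Among the members that passed, the largest differences from CA1 were those of Rpl36a, Rpl7, Rpl9, Rpl8, Rpl13 and Rpl37a, all of the large subunit. Rpl36a, which is X-linked and whose protein lies where the spent tRNA leaves the ribosome, had signals of 6.85 to 9.05 in DG (median 7.99), 5.40 to 8.25 in CA1 (median 7.48) and 6.44 to 8.76 in CA3 (median 7.90). DG and CA3 arrays covered nearly the same range and the CA1 arrays reached lower. The difference was 0.81 from CA1 (1.75-fold, standard error 0.19, adjusted p = 0.00336, higher in 14 of 17 mice), and 0.20 from CA3 (adjusted p = 0.557).

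Rpl7 showed the same order. Its signals were 7.02 to 8.90 in DG (median 8.01), 5.68 to 7.96 in CA1 (median 7.37) and 7.0 to 8.66 in CA3 (median 7.86). The CA1 arrays again reached lowest. It was higher in DG than in CA1 by 0.75 (standard error 0.14, adjusted p = 0.000335), while the 0.19 from CA3 did not pass (adjusted p = 0.425). Rpl7 was the single member called between the pyramidal layers, lower in CA1 than in CA3 by 0.55 (difference −0.55, standard error 0.14, adjusted p = 0.0163), and its other 2 probe sets were called lower too (−0.49 and −0.36). This call of Rpl7 did not hold without the 7 arrays (adjusted p = 0.0658), without the 4 CA1 and the 5 doubtful arrays (adjusted p = 0.0727), with no block for the mouse (adjusted p = 0.0708) or with a random one (adjusted p = 0.0603).

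Rpl8, whose protein reaches the peptidyl transferase centre where peptide bonds are made, differed from both pyramidal layers by a similar amount. It had signals of 7.04 to 8.5 in DG (median 7.95), 5.68 to 8.61 in CA1 (median 7.41) and 6.54 to 7.91 in CA3 (median 7.23). It was higher in DG by 0.59 than in CA1 (standard error 0.15, adjusted p = 0.00593, 15 of 17 mice) and by 0.64 than in CA3 (standard error 0.15, adjusted p = 0.00238, 16 of 17 mice), the largest of the 68 differences from CA3. After it, among those that passed, came Rpl36 (0.59 from CA3, adjusted p = 0.00137), Rps9 of the small subunit (0.48, adjusted p = 0.0185), Rps23, a protein of the decoding site (0.44, adjusted p = 0.00182), Rpl4, and Rpl9 (0.43, adjusted p = 0.00656). Without the 5 arrays the differences of Rps9 (adjusted p = 0.08) and Rpl9 (adjusted p = 0.0679) from CA3 no longer passed.

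**Figure D2:**
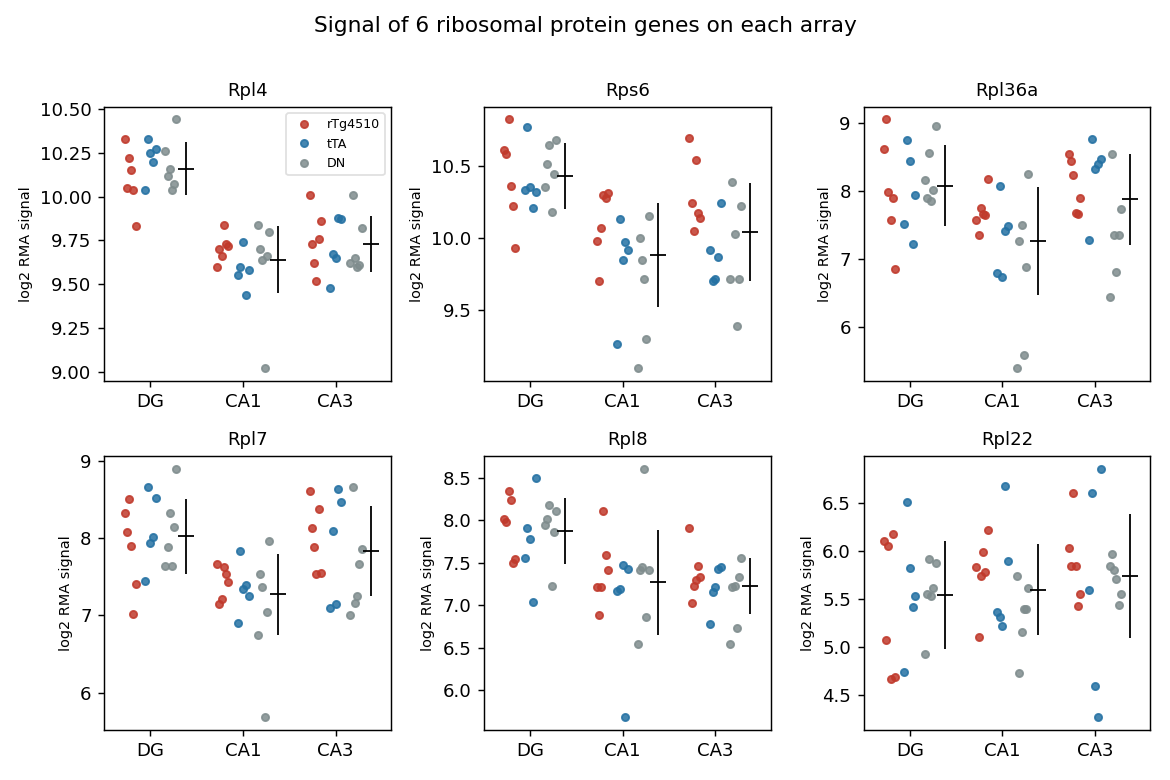
Log2 RMA signal of Rpl4, Rps6, Rpl36a, Rpl7, Rpl8 and Rpl22 on each array, by layer and, within a layer, by genotype (red rTg4510, blue tTA, grey DN). Black bars give the mean and SD over the 17 arrays of a layer. For Rpl4 the DG arrays (9.83 to 10.44) lie almost wholly above the CA1 arrays (9.02 to 9.84), whereas for Rpl22 the layers overlap.

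The sequences at the starts of the genes show what the members share. RefSeq windows (GRCm38.p6) from 250 bases before to 50 bases after an annotated start were at hand for 55 of the 68 genes, matched by gene ID. The 30 bases made of 20 before the start and 10 from the start on are printed for Rpl4, Rps6 and Rps9, called higher in DG in both contrasts and holding a pyrimidine tract there, and for Rpl36a and Rpl9, which were among the members with the largest differences from CA1 and hold none. Capitals mark the longest tract, a C followed by at least 4 pyrimidines.
Rpl4 (chr9:64173367-64173396, plus strand): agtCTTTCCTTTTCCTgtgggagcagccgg
Rps6 (chr4:86857358-86857387, minus strand): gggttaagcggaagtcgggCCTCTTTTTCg
Rps9 (chr7:3704021-3704050, plus strand): gtccaaccgccttgtCTCTCTTTgtctcgg
Rpl36a (chrX:134585634-134585663, plus strand): aggaagtgcacccaggcaccgcctataaac
Rpl9 (chr5:65391422-65391451, minus strand): gcgacacgcagggccctgacggattacaag
In Rps6 and Rps9 the tract runs across the annotated start, and in Rpl4 it ends shortly before it. Annotated starts can be several bases off, so a tract beside a start is a match of letters and no measured mRNA end.

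Such a tract lay in the 30 bases of 36 of the 55 members (65.5%), against 44.4% of the 9553 genes of the array that had a window. Among members called higher in DG in either contrast it was in 20 of 30 (66.7%), and among the others in 16 of 25 (64%). In the whole windows, on either strand and with overlaps between motifs allowed, CCGGAAG, the core bound by ETS factors such as GABP, was in 25 members (45.5%, against 16.3% of all genes). AAGATGG, the core of a YY1 site, was in 8 (14.5%, against 7.9%), and GGGCGG, the GC box, in 33 (60%, against 60.3%). Among called members and the others, CCGGAAG was in 13 of 30 (43.3%) and 12 of 25 (48%), AAGATGG in 2 of 30 (6.67%) and 6 of 25 (24%), and GGGCGG in 19 of 30 (63.3%) and 14 of 25 (56%). No test was made of these shares.

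By position in the ribosome, the difference was spread over most parts. Of the proteins near the peptidyl transferase centre, Rpl3, Rpl8 and Rpl10 were called higher in DG in both contrasts. Rpl27, also of the large subunit, was called in neither (0.16 from CA1, adjusted p = 0.512, and 0.22 from CA3, adjusted p = 0.271, limma). Rpl3, whose protein reaches into the peptidyl transferase centre, was higher in DG than in CA1 in 17 of 17 mice, by 0.54 (adjusted p = 0.000104).

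Of the 9 members at the exit tunnel and its rim, 5 were called higher than in CA1 (Rpl4, Rpl17, Rpl23a, Rpl31 and Rpl35) and 2 higher than in CA3 (Rpl4 and Rpl23a), with medians of 0.46 and 0.22. Rpl23a and Rpl35, which hold factors that meet the emerging chain, differed from CA1 by 0.33 and 0.51. Rpl19 (0.23), Rpl22 (−0.06), Rpl26 (0.42) and Rpl39 (0.57) did not pass against CA1, the last with a standard error of 0.21.

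The stalk recruits elongation factors. Rplp2 of the stalk was called in both contrasts (0.33 from CA1, adjusted p = 0.00196, and 0.42 from CA3, adjusted p = 0.000103), and Rplp0, which anchors the stalk, against CA1 alone (0.55, adjusted p = 0.00484). For Rplp1, the partner of Rplp2, the differences were 0.15 and −0.02, and for Rpl12 at the stalk base 0.52 with a standard error of 0.24 and 0.12, and none of these passed. Rpl11, which with Rpl5 and 5S rRNA forms a particle that can also bind Mdm2, was called against CA1 at the edge of the threshold (0.43, adjusted p = 0.0497).

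Of the small subunit, 24 of 24 genes lay higher in DG than in CA1 and 11 were called, with a median of 0.35, beside 26 of 44 and a median of 0.41 for the large subunit. Against CA3, 7 of 24 small and 15 of 44 large subunit genes were called, with medians of 0.29 and 0.22. Rps2, at the entry of the mRNA channel, was called against CA1 (0.37, adjusted p = 0.00403). Rps14, Rps26 and Rps28, at its exit, were not called against either layer, with differences between 0.13 and 0.41.

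None of the 5 paralogs that were measured was called in either contrast (limma, 0 of 5 with an unadjusted p under 0.05 in both). Whether they differed from the other members was not tested. Rpl3l, the striated muscle form of Rpl3, differed by 0.02 and −0.03 (standard error 0.07), Rpl39l, known from testis, by 0.04 and 0.13 (standard error 0.09), and Rpl7l1 by −0.02 and −0.05 (standard error 0.30) from CA1 and from CA3. Rpl3l (mean signal 1.59) and Rpl39l (2.18) were the only members under the median mean signal of all probe sets (3.10), so that little signal stood behind their differences. Rps27l, which p53 can induce, had a standard error of 0.36, and Rpl22l1 differed by 0.34 (standard error 0.24) and 0.06.

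Rpl22, an RNA-binding protein of the large subunit and the canonical counterpart of Rpl22l1, was the member with the lowest difference in both contrasts, −0.06 from CA1 and −0.19 from CA3 (standard error 0.19, adjusted p = 0.921 and 0.568). Its signals of 4.67 to 6.51 in DG, 4.73 to 6.68 in CA1 and 4.27 to 6.86 in CA3 overlapped fully. Of the 6 measured canonical counterparts of paralogs, 4 were called higher in DG than in CA1 (Rpl3, Rpl7, Rpl10 and Rps4x), and Rpl22 and Rpl39 were not.

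A probe set need not see its gene alone, since most of these genes have processed pseudogenes in the mouse genome. Of the 68 probe sets used, 20 ended in _x_at and 5 in _s_at, names for sets whose probes match several transcripts. With the 60 genes that have a probe set of another kind, 27 were called higher in DG than in CA1 and 17 higher than in CA3. Of all probe sets, 5.33% and 6.59% were. Of the 61 further probe sets of the members, 48 lay higher in DG than in CA1, 15 were called higher (5.33% of all probe sets were) and 1 lower. The last was a dim probe set of Rpl17 (mean signal 3.55, where the one used had 8.25), which lay lower in DG by 1.53 than in CA1 (difference −1.53, standard error 0.37) and by 2.24 than in CA3 (difference −2.24, standard error 0.37), against 0.46 and 0.22 for the probe set used.

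Other genes of translation did not show the difference as broadly. Of 70 genes of the mitochondrial ribosome, 57 lay lower in DG than in CA1 and 55 lower than in CA3, with medians of −0.19 and −0.20. None was called higher in DG than in CA1 (4 were called lower, 11 had an unadjusted p under 0.05, limma) and 1 (Mrpl3, 0.66) higher than in CA3 (5 were called lower). Of all probe sets, 5.33% were called higher and 5.6% lower in DG than in CA1, and 6.59% and 7.27% than in CA3. The counts called lower were near these shares. Mrpl20 of the large mitochondrial subunit was lower in both (−0.94, adjusted p = 0.00292, and −1.14, adjusted p = 0.000237), as was Mrpl28 (−0.40 and −0.41).

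Of 38 measured translation factors, 4 were called higher in DG than in CA1 (10.5%) and 2 higher than in CA3 (5.26%), with medians of 0.04 and −0.01. Of all probe sets, 5.33% and 6.59% were called higher. The 4 were Eef1a1, which brings aminoacyl-tRNA to the ribosome (0.39, adjusted p = 1.81e-06), Eef1g (0.48) and Eef1d (0.58) of its exchange factor complex, and Pabpc1, the poly(A)-binding protein (0.51). The mRNAs of Eef1a1, Eef1g and Pabpc1 carry TOP sequences in other mammalian cells. Whether the factors that were not called carry them was not looked at, and a link of TOP sequences to the layers was not tested. Eif1b, an initiation factor, was lower in DG than in CA3 (−0.38, adjusted p = 0.0167) and lower in CA1 than in CA3 (−0.71, adjusted p = 4.12e-05).

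The 53 measured genes of ribosome assembly had medians of −0.03 and 0.04 and moved both ways. Ubtf, a factor of ribosomal DNA transcription, was higher in DG than in CA1 (0.59) and Ddx21, a nucleolar helicase, higher than in CA3 (0.99), while Nhp2 of the snoRNA particles was lower than in both (−0.88 and −1.28). Of 20 genes of the mTOR pathway and the S6 kinases, 3 were called higher and 1 lower in DG in each contrast. Of all probe sets, 5.33% were called higher and 5.6% lower than in CA1, and 6.59% and 7.27% than in CA3. Rragd was higher in DG than in CA1 by 1.28, the largest difference of this list there. Ddit4, which restrains mTOR, was higher than in CA1 (0.79) and than in CA3 (1.10), and Akt1, upstream of mTOR, by 0.40 and 0.47. Eif4ebp2 was higher (0.74) and Rps6ka3 lower (−0.78) in DG than in CA3. Rheb, which activates mTOR, was lower than in CA1 (−0.30, adjusted p = 0.0128). Of 10 genes of ribosome-associated proteins 1 was called higher than in CA1, Naca of the complex that binds emerging chains (0.37), with a median of 0.02 for the list.

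**Figure D3:**
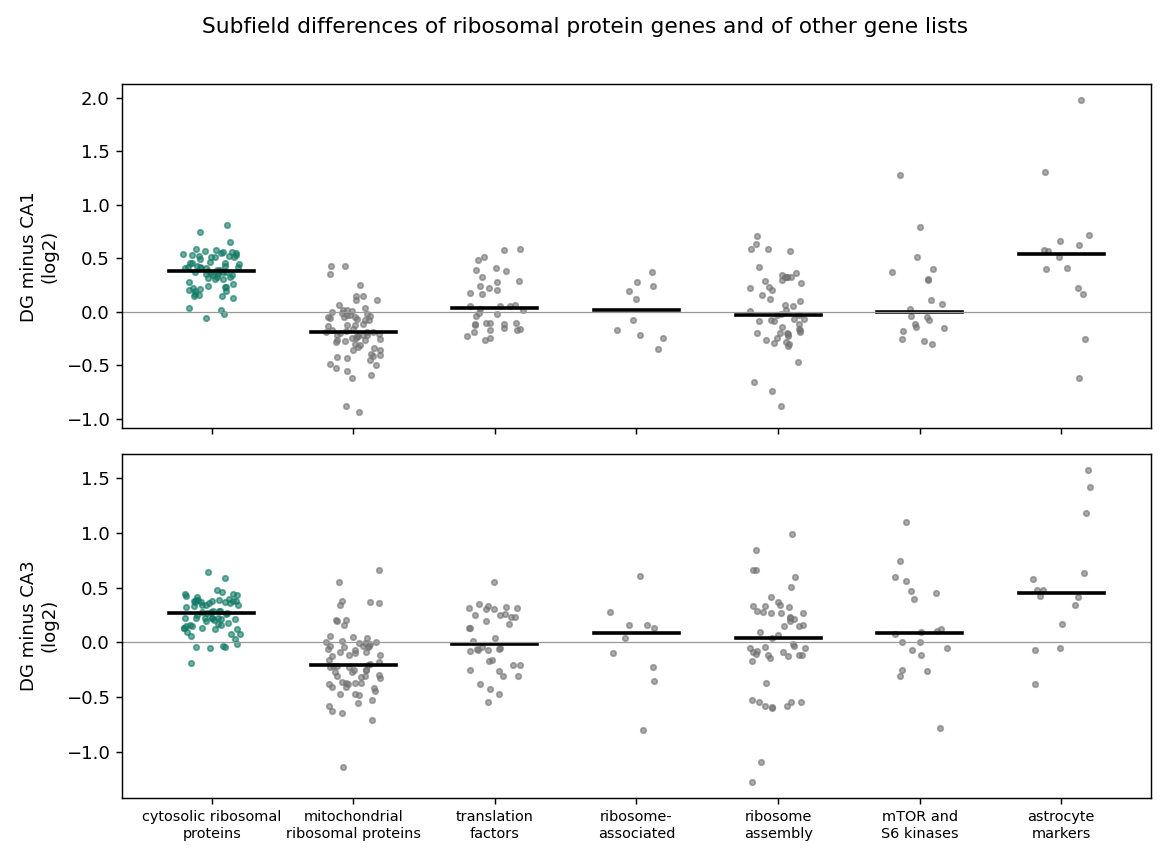
Difference of log2 signal between DG and CA1 (top) and between DG and CA3 (bottom) for the 68 cytosolic ribosomal protein genes (green) and for other gene lists (grey), 1 point per gene, with the median as a black line. The cytosolic genes have medians of 0.39 and 0.26, the mitochondrial ribosomal genes of −0.19 and −0.20 and the translation factors of 0.04 and −0.01.

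Astrocyte markers moved with the layers. Of 14 measured astrocyte markers, 6 were called higher and 1 lower in DG than in CA1, and 5 higher than in CA3, with medians of 0.54 and 0.45. Gfap, their filament protein, was higher by 1.98 and 1.42. Their summed score, the mean of the signals less their means over all arrays, ran between −0.90 and 1.08 in DG, −0.75 and 1.29 in CA1 and −1.12 and 0.73 in CA3. It was higher in DG than in CA1 in 14 of 17 mice and than in CA3 in 15 of 17. None of 11 oligodendrocyte markers was called between DG and either other layer (2 had an unadjusted p under 0.05 in each, limma), and of 15 microglial markers none was called against CA1 (4 with an unadjusted p under 0.05) and 2 were higher and 1 lower than in CA3. Interneuron markers went both ways. Calb2 (2.22) and Gad1 (0.65) were called higher and Cck (−1.24) and Pvalb (−1.78) lower in DG than in CA1. Against CA3, Gad1 (1.53), Npy (1.58) and Gad2 (1.37) were called higher and Cck (−1.31) lower. The interneuron score averaged 0.17 in DG, 0.16 in CA1 and −0.33 in CA3.

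Signs of RNA quality went different ways. The 3′ probe set of Gapdh exceeded the 5′ one on average by 2.76 ± 0.34 in DG, 2.38 ± 0.33 in CA1 and 2.46 ± 0.27 in CA3 (SD, n = 17 each). The same difference for Actb was −0.55 ± 0.16 in DG, −0.37 ± 0.16 in CA1 and −0.51 ± 0.17 in CA3. The part of astrocyte RNA, of interneuron RNA and of RNA quality in the result was not tested. In captured tissue, more cells of a type and more RNA per cell cannot be told apart, and since the RMA signals are set to 1 common distribution, all differences are relative to the other genes of an array.

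A score of each array, the mean over the 68 genes of the signal less that gene's mean over all arrays, shows how the mice differed. It averaged 0.21 ± 0.25 in DG (−0.31 to 0.69), −0.17 ± 0.26 in CA1 (−0.80 to 0.24) and −0.04 ± 0.34 in CA3 (−0.79 to 0.57) (SD, n = 17 each). Within mice it was higher in DG than in CA1 in 15 of 17 and than in CA3 in 12 of 17. Without the 5 doubtful arrays, some of which may not belong to the mouse they are paired with, it was 12 of 14 and 9 of 14. The lowest values were those of CA1 and CA3 of DN mouse 4, whose genotype label is in doubt.

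By genotype the mean within-mouse difference between DG and CA1 was 0.13 ± 0.41 in rTg4510 mice (higher in DG in 4 of 6), 0.44 ± 0.10 in tTA mice (5 of 5) and 0.56 ± 0.26 in DN mice (6 of 6). Between DG and CA3 it was 0.00 ± 0.23 in rTg4510 mice (3 of 6), 0.35 ± 0.24 in tTA mice (4 of 5) and 0.41 ± 0.44 in DN mice (5 of 6). Without the 5 doubtful arrays the difference from CA1 was 0.03 ± 0.37 in rTg4510 mice (n = 5), 0.44 ± 0.10 in tTA mice (n = 5) and 0.55 ± 0.22 in DN mice (n = 4), and that from CA3 was −0.07 ± 0.16, 0.35 ± 0.24 and 0.35 ± 0.48. Without the 4 CA1 arrays the difference from CA1 was 0.26 ± 0.30 in rTg4510 mice (n = 4), 0.43 ± 0.12 in tTA mice (n = 4) and 0.61 ± 0.25 in DN mice (n = 5), and without both sets of arrays it was 0.13 ± 0.21 (n = 3), 0.43 ± 0.12 (n = 4) and 0.64 ± 0.18 (n = 3) in the same order. In rTg4510 mouse 6 the score was −0.31 in DG and 0.24 in the CA1 array, which had a mean of 1.10 for the CA3 and −0.56 for the CA1 markers, and rTg4510 mouse 5 had nearly equal scores (0.00 in DG and 0.01 in CA1). Gene by gene, 55 of 68 members lay higher in DG than in CA1 in rTg4510 mice, 67 in tTA mice and 65 in DN mice, with medians of 0.18, 0.41 and 0.56. Against CA3 it was 35, 59 and 64 genes, with medians of 0.02, 0.37 and 0.40.

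Fitted within a genotype, which leaves 5 or 6 mice, 0 members were called higher in DG than in CA1 in rTg4510 mice, 0 in tTA mice and 16 in DN mice, and 0, 1 and 4 higher than in CA3. In DN mice the 16 became 5 without the 5 doubtful arrays and 4 without the CA1 array of DN mouse 2, and in rTg4510 mice the median from CA1 became 0.09 and 0.22. The share of all probe sets called in these fits was not computed, so the counts cannot be read as particular to the members. A count within 1 genotype is no test of a difference between genotypes. The difference between layers was tested between rTg4510 and tTA mice alone, which is given with the genotype comparisons. It was not tested between DN mice and either other genotype.

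**Figure D4:**
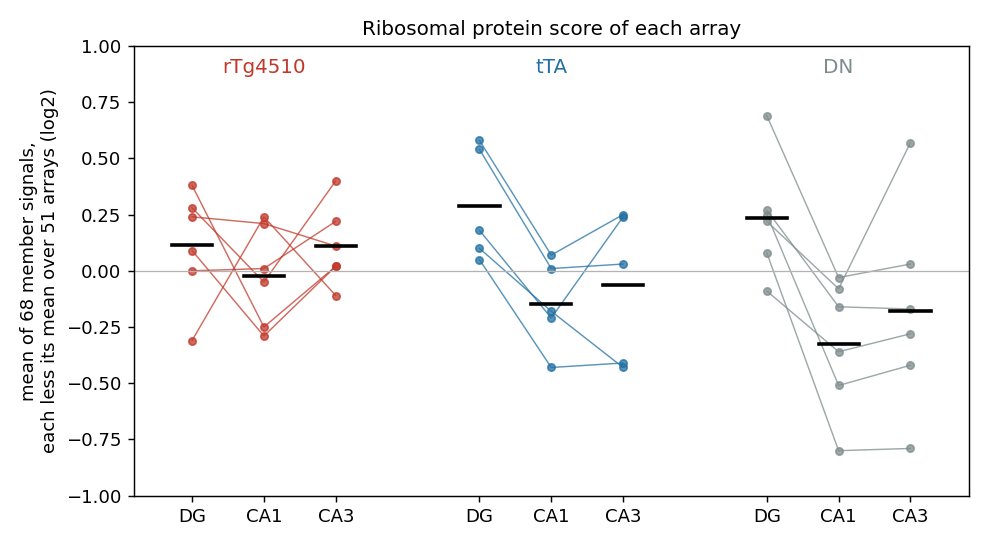
Mean log2 signal of the 68 genes on each array, each gene taken less its mean over the 51 arrays, by genotype and layer. Thin lines join the 3 arrays of a mouse and black bars give group means. The score is higher in DG than in CA1 in 4 of 6 rTg4510, 5 of 5 tTA and 6 of 6 DN mice.

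No ribosomal protein gene was called between genotypes. For each layer, limma was fitted to its 17 arrays with all genotypes together and p-values were adjusted over all 22626 probe sets. In DG 0 of the 68 were called between rTg4510 and tTA mice, between tTA and DN mice, or between rTg4510 and DN mice, where 0% of all probe sets were called in each, with unadjusted p under 0.05 for 3, 4 and 1 members. In CA1 0 were called in any comparison, against 0% of all probe sets for rTg4510 and tTA mice and for tTA and DN mice and 0.00442% for rTg4510 and DN mice, with unadjusted p under 0.05 for 1, 1 and 10. In CA3 0 were called, against 0.00442% of all probe sets for rTg4510 and tTA mice and 0% for the other comparisons, with unadjusted p under 0.05 for 2, 3 and 2. Fisher's LSD, the test named in the methods, also called 0 members in each of these, on log2 and on linear signals.

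The members lay mostly to 1 side within a layer, but the medians depended on the doubtful arrays. In rTg4510 against tTA mice, 14 of 68 lay higher in DG (median −0.13), 52 in CA1 (median 0.14) and 56 in CA3 (median 0.17), where all probe sets had medians of −0.01, −0.02 and −0.03. In rTg4510 against DN mice, 16 lay higher in DG (median −0.10), 64 in CA1 (median 0.29) and 64 in CA3 (median 0.29). In tTA against DN mice, it was 37 in DG (median 0.02), 49 in CA1 (median 0.14) and 42 in CA3 (median 0.07). The comparisons share mice, and the genes of an array move together, so these counts are no count of separate results. The medians of rTg4510 against tTA mice were smaller than the SD of the members' mean score between mice of a genotype, 0.25 in DG, 0.24 in CA1 and 0.34 in CA3. This SD is that of single mice and not of a difference between group means, so it is no test of the medians. That of rTg4510 against tTA mice in CA1 was −0.01 without the 4 CA1 arrays. Without the 5 doubtful arrays the median was −0.19 in DG for rTg4510 against tTA mice, and for rTg4510 against DN mice it was −0.30 in DG, 0.18 in CA1 and 0.17 in CA3. For tTA against DN mice it was then −0.09 in DG, 0.07 in CA1 and −0.04 in CA3. No member was called in any of these settings.

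The difference between layers of the rTg4510 effect was tested directly, with tTA mice as control. The effect in DG less that in CA1 was negative in 64 of 68 members (median −0.24) and that in DG less that in CA3 in 58 (median −0.33), and in CA1 less that in CA3 in 45 (median −0.07). The median of DG less CA1 was −0.15 without the 4 CA1 arrays, and without the 5 doubtful arrays −0.35. In limma, 0 members and 0% of all probe sets were called in each, with unadjusted p under 0.05 for 4, 8 and 0 members. For the mean of the layers, rTg4510 mice lay higher than tTA mice in 46 of 68 (median 0.06, and −0.04 without the 4 CA1 arrays), and again 0 members and 0% of all probe sets were called, with 1 member at an unadjusted p under 0.05.

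**Figure D5:**
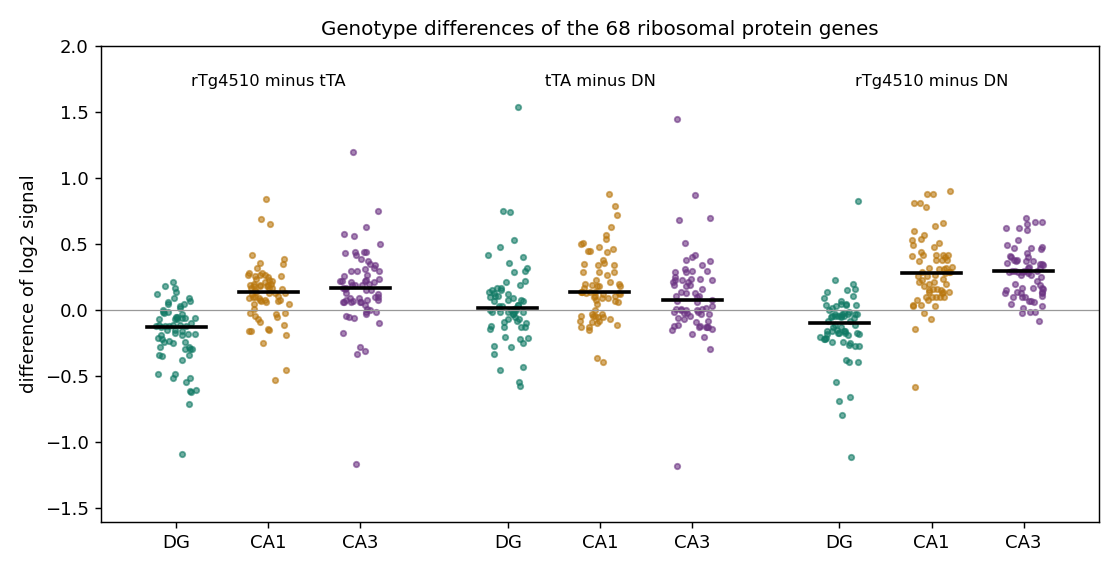
Difference of log2 signal between genotypes for each of the 68 genes, 1 point per gene, by comparison and layer, with the median as a black line. None of the points passed an adjusted p of 0.05. For rTg4510 minus tTA the medians are −0.13 in DG, 0.14 in CA1 (−0.01 without 4 CA1 arrays) and 0.17 in CA3.

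The members with the smallest p-values in each genotype comparison are described next. Rps6 in CA3 had signals of 10.05 to 10.69 in rTg4510 mice (median 10.2), against 9.70, 9.72, 9.87, 9.92 and 10.24 in tTA mice and 9.39 to 10.39 in DN mice (median 9.88). The rTg4510 arrays lay above all but 1 of the tTA arrays. The difference was 0.42 from tTA mice (standard error 0.18, adjusted p = 0.819, limma) and 0.40 from DN mice (adjusted p = 0.984).

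In CA1, Rpl21 had signals of 8.94 to 9.62 in rTg4510 mice (median 9.32), against 8.28 to 9.21 in DN mice (median 8.87), with those of tTA mice between 8.97 and 9.34. The groups overlapped, and the difference of 0.54 between rTg4510 and DN mice (standard error 0.17) had the smallest unadjusted p of all members in all genotype comparisons, 0.00579, and an adjusted p of 0.785. Rps7 (0.90) and Rplp0 (0.88) came next there, and Rplp0 was at 4.49 in DN mouse 4, one of the doubtful arrays.

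In DG, Rpl35a had signals of 8.80 to 9.21 in rTg4510 mice (median 8.95), against 9.0, 9.29, 9.74, 9.82 and 10.15 in tTA mice, while DN mice ran between 8.28 and 9.91. Only the lowest tTA array lay within the rTg4510 range. The difference of −0.61 had a standard error of 0.24 (adjusted p = 0.804), and that of Rpl41, the shortest ribosomal protein, was −0.35 (standard error 0.16, adjusted p = 0.833). Rps27l lay higher in tTA than in DN mice by 1.54 in DG (standard error 0.58, adjusted p = 0.935) and by 1.45 in CA3 (standard error 0.62, adjusted p = 0.809), the largest differences of the 68 between any pair of genotypes, and its signals in DG were 5.52, 5.85, 5.88, 6.21 and 6.64 in tTA mice against 2.66 to 6.56 in DN mice. In CA1, Rps16 was at 5.68, 6.32, 7.55, 7.80 and 8.24 in tTA mice, against which rTg4510 mice at 7.58 to 8.30 lay higher by 0.84 on average (standard error 0.39, adjusted p = 0.999).

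Glial markers were compared between genotypes as well, and none was called between rTg4510 and tTA mice. In rTg4510 against tTA mice, the 11 oligodendrocyte markers had medians of 0.74 in DG, 1.13 in CA1 and 0.85 in CA3, the 15 microglial markers of −0.22, 0.44 and 0.19, and the 14 astrocyte markers of 0.31, 0.30 and 0.18, with none called in limma (unadjusted p under 0.05 for 1, 4 and 3 oligodendrocyte, 1, 6 and 4 microglial and 1, 2 and 2 astrocyte markers). Whether RNA of other cells took part in the members' differences was not tested.

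The 68 genes varied together from array to array. After the means of layers and mice were taken out, the signal of a gene correlated with the mean of the other 67 at a median r of 0.585 over the 51 arrays, with 46 of 68 genes above 0.5, and pairs of members at a median r of 0.342. Arrays share their normalization and RNA quality, and the 3 of a mouse share an animal, so these values describe the arrays. They were not computed for other genes of like signal and cannot be read as particular to the members. The genes most like the rest were Rps25 (r = 0.881), Rps4x (0.829), Rpl23a (0.797), Rpl24 (0.779) and Rpl11 (0.767). The least alike were Rps2 (0.247), Rpl7l1 (0.239), Rpl22 (0.118), Rpl39l (−0.237) and Rpl3l (−0.298). Of these 5, 3 are paralogs, which had the lowest mean signals of the 68 (1.59 for Rpl3l, 2.18 for Rpl39l and 3.25 for Rpl7l1). The other measured paralogs, Rps27l (r = 0.542) and Rpl22l1 (r = 0.511), were above 0.5. Rpl22 was also the member with the lowest difference between DG and the pyramidal layers.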

How the data were processed

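Total RNA of laser-captured layers was amplified (Ovation Pico WTA), biotin-labelled and hybridized to Affymetrix HT-MG-430A arrays by the authors, and the deposited values are log2 signals after RMA (background correction, quantile normalization and median polish over the probes of a set). The methods speak of anti-log RMA values, but the values run up to 12.3 and were taken as log2. The number of arrays limits the precision. Of 22716 probe sets, 90 controls were left out. Symbols came from the platform annotation given for the series: 18003 probe sets had 1 symbol, 287 several and 4336 none. Layers were compared in limma 3.58.1 (R 4.3.3) on 51 arrays with the mouse as a fixed block, because each mouse gave 3 arrays per the labels, and genotypes on the 17 arrays of a layer. Residuals of arrays of 1 mouse correlated at 0.0492 on average and those of different mice at −0.021. The limma scripts were tested on simulated data. The methods' own test was a 1-way ANOVA with Fisher's LSD, run as an alternative.

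The members and all gene lists were chosen with earlier results of these data known. The genes named were, per layer contrast, the 6 called members with the largest difference each way, per genotype comparison the 3 with the smallest p where none was called, members of listed positions in the ribosome, the 5 most and least alike, and up to 4 called genes of each other list. Alternatives were no block or a random block for the mouse, array weights, an intensity trend in the variance, only probe sets above the 40th percentile of signal, centring, quantile normalization, other probe sets, single genotypes, and leaving out arrays of doubtful genotype or layer or single mice.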

Additional observations from a re-analysis of the deposited data

Results flagged for a closer look

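In groups of 5 or 6 arrays, a single array of a member lay far from the others of its layer and genotype in 9 of the 189 groups looked at (20 named members and the score over all members), and chance alone flags about 1 in 20 groups. In CA1 of tTA mice, Rpl35a was at 7.78 in mouse 1 against 9.04 to 9.41 in the others, Rpl23 at 8.74 in the same array against 9.11 to 9.20, and Rpl11 at 8.43 in mouse 4 against 7.5 to 7.69. In CA3 of rTg4510 mice, Rpl11 was at 8.84 in mouse 1 against 7.96 to 8.22, and Rpl36 at 8.16 in mouse 3 against 8.66 to 8.93. In DG, Rplp0 was at 6.80 in rTg4510 mouse 6 against 7.31 to 7.56, and Rps6 at 10.77 in tTA mouse 2 against 10.21 to 10.35. Among the doubtful arrays, Rplp0 was at 4.49 in CA1 of DN mouse 4 against 6.41 to 7.11, and Rps16 at 5.99 in DG of DN mouse 5 against 7.70 to 8.45.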

How the results depend on the processing

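The count of members higher in DG than in CA1 (37) lay between 19 and 52 in other settings with all genotypes, and the median stayed between 0.33 and 0.44. The 52 counts probe sets and not genes, since the setting with all member probe sets adds the 61 further probe sets. Within single genotypes the count of members was 0 (rTg4510), 0 (tTA) and 16 (DN), with no share of all probe sets computed beside it. No such share was computed for the other refits or with arrays left out, so changes in count cannot be read as particular to the members. The count higher in DG than in CA3 (22) was 13 without the 5 and 13 without the 7 doubtful arrays, and 0, 1 and 4 within the genotypes. Without the 4 CA1 and the 5 doubtful arrays the counts were 19 and 14, with 2 lower in CA1 than in CA3, against 3 without the 4 alone. Within rTg4510 mice they stayed at 0 and 0 without the 5 or the 4, with a median from CA1 of 0.0875 without the 5. Within DN mice they were 5 and 1 without the 5 and 4 and 4 without the 4, and within tTA mice 0 and 2 without the 4, with 0 lower in CA1 than in CA3 in each. The settings with the 4 CA1 arrays left out, and those within genotypes with arrays left out, were chosen after seeing the data. With no replicate block for the mouse 31 and 15 were called, and with a random replicate block 32 and 17. The 1 member lower in CA1 than in CA3 became 0 with no block or a random block, within each of the 3 genotypes (0, 0 and 0) and without the 7 arrays (0). The count was 2 with the filter, 5 with array weights and 6 after centring. It was 1 to 3 without single mice (3 without DN mouse 4 or tTA mouse 3, 2 without DN mouse 6, rTg4510 mouse 6 or tTA mouse 1). With all member probe sets it was 3, but these are the 3 probe sets of 1 gene, Rpl7. The count lower in DG became 1 in both contrasts with probe sets not ending in _x_at or _s_at and with all member probe sets, through a dim probe set of Rpl17. Leaving out single mice gave 31 to 42 and 17 to 26 members. Of the single genes, Rps9 against CA3 lost its call with no block (adjusted p = 0.0687), a random block (0.0583) and without the doubtful arrays, Rpl9 against CA3 without those arrays, Rpl13 against CA1 without the 4 and the 5 (0.0724) and Rpl7 between CA1 and CA3 as given above. All genotype counts stayed at 0. The median of rTg4510 against tTA mice in CA1 was −0.01 without the 4 CA1 arrays, against 0.14 with all. The cause of these changes was not tested, except that single genotypes and fewer arrays leave fewer mice. Dim members, Rpl3l and Rpl39l above all, lie near the floor of the arrays, where a difference is compressed.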
